A study of Homo sapiens with 9 samples.

Results

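Metallothioneins are small cysteine-rich proteins that bind zinc, copper and cadmium, and their genes are described here together with MTF1, which encodes the zinc-sensing transcription factor that drives them. The 10 genes were taken by name from a table of 62703 genes by 9 libraries: the MT1 genes MT1A, MT1B, MT1E, MT1F, MT1G, MT1H, MT1M and MT1X, the MT2 gene MT2A, and MTF1. All 10 had 1 row each, and genes listed near or at 0 were kept in the description. The libraries are polyadenylated RNA of cells labelled HepG2, which is a line from a human liver cancer. All of the cells had been exposed for 24 h to palmitic acid, a long-chain saturated fat, at 750 µM. In 3 libraries the cells then had 20 µM curcumin, a polyphenol of turmeric, together with 5 µM CuCl2 for 12 h. In 3 more they had 20 µM curcumin for 12 h, and the remaining 3 had palmitic acid alone. The labels describe no cells given CuCl2 without curcumin, no vehicle control, no cells free of palmitic acid and no further 12 h for palmitic acid alone, so treatment and added hours cannot be told apart in differences from that group.

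As background, MTF1 moves to the nucleus when free zinc rises and binds short metal response elements in metallothionein promoters. Copper can raise zinc by displacing it from metallothionein, and glucocorticoids and oxidants also induce these genes. In liver, metallothioneins hold zinc and copper and buffer an excess of either metal, and MT2A and MT1X are usually among the most abundant human forms.

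Levels are in TPM, a unit that corrects reads for gene length and gives all libraries an equal sum, so they can be compared between genes. The reads behind each value are unknown. Libraries held 13208 to 13737 genes at 1 TPM or more, and mitochondrial genes held between 10.1% of the TPM in replicate 3 of palmitic acid alone and 13% in replicate 1 of that group. Of 11 hepatocyte markers, all 11 had a mean under 1 TPM and 5 were listed at 0 in every library, among them ALB, the serum albumin gene, so the cells are called cells labelled HepG2. Markers of other cell types were also low, with 5 of 6 fibroblast, 3 of 6 leukocyte and 5 of 5 endothelial genes under 1 TPM. The epithelial keratin genes KRT7, KRT8 and KRT18 averaged 1216, 892 and 862 TPM over the 9 libraries, while the other 3 of 6 epithelial markers, KRT19, EPCAM and CDH1, had means under 1 TPM. Summed over these 6 epithelial genes, the level was 2637 to 2715 TPM with curcumin and CuCl2, 2505 to 2865 TPM with curcumin and 3314 to 3812 TPM with palmitic acid alone, and its part in the results below was not tested.

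The 9 metallothionein genes lie in a cluster of 76 kb on chromosome 16 (GRCh38, 56608199 to 56684196, GENCODE release 29). MT2A opens it at 56608199 to 56609497, MT1E follows at 56625475 to 56627112, MT1F at 56657694 to 56660698 and MT1X closes it at 56682424 to 56684196, all on the plus strand. MT1G, at 56666731 to 56668065, is the only 1 of the 9 on the minus strand, and the annotated principal transcript of each of the 9 has 3 exons. MTF1 is on chromosome 1 at 37809567 to 37859620, on the minus strand. Because the genes arose by duplication, reads can fit more than 1 of them. Of all 50-base stretches in the annotated transcripts, 18.3% for MT1X, 7.1% for MT1E, 3.02% for MT2A and 1.22% for MT1F also occur in another gene, and for MT1G the share was 16.5%. At 100 bases only MT1X, MT1B and MT1H shared any, and for MT1X that was 11.3%, all of it with the locus AC026461.1. How the authors' software divided such reads is not given in the sources used here, so values of single genes carry that uncertainty.

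RefSeq promoters, 250 bases before to 50 after the annotated start (GRCh38.p14), were at hand for 5 of the 10 genes: MT1X, MT2A, MT1B, MT1H and MTF1. They are shown for the abundant MT1X and MT2A and, next to them, for the nearly silent MT1H and MT1B. Each was searched on both strands for the core of the metal response element, spelled TGCACNC or TGCGCNC. Capitals mark the matches, which did not overlap each other in these promoters, and a match on the minus strand is capitalised as it reads on the strand shown.
MT1X, chr16:56682220-56682519, plus strand: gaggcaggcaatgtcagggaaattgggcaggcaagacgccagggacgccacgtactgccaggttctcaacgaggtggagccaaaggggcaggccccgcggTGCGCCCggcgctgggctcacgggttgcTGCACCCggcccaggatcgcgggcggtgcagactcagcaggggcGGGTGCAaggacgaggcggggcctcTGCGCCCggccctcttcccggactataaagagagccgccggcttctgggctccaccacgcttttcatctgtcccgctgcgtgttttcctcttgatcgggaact
MT2A, chr16:56608334-56608633, plus strand: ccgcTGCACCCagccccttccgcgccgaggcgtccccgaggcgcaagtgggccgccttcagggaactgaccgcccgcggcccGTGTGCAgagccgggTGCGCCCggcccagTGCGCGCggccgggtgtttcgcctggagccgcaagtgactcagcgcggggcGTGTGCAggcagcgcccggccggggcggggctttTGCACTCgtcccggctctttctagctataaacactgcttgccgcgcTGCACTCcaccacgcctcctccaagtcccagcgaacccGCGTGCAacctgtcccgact
MT1H, chr16:56669564-56669863, plus strand: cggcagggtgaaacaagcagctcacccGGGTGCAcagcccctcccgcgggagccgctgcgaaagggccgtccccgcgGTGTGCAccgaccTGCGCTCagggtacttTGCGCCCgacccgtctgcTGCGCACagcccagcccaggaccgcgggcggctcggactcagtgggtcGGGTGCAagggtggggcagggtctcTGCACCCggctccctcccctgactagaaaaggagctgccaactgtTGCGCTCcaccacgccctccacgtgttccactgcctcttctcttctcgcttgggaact
MT1B, chr16:56651636-56651935, plus strand: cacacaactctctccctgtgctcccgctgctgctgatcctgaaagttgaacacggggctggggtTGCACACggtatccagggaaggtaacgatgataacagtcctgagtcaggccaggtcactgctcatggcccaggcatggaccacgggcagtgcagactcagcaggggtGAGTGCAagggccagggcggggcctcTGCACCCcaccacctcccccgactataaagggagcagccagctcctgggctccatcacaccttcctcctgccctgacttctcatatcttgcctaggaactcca

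MT1X held 4 matches, MT2A 8, MT1H 8 and MT1B 3, and the MTF1 promoter held 0. Of 35116 promoters of the same 300-base length, 29.6% held at least 1 match, 2.3% held 3 or more, 0.601% held 4 or more and 0.0199% held 8 or more. A match close to the start was shared by MT1X, MT1H and MT1B at position -53 and by MT2A at -54, counted from the RefSeq start. That start need not match the GENCODE gene start given above: the MT2A window lies wholly inside the GENCODE MT2A gene. MT1H, with as many matches as MT2A, was listed at 0 in 8 of 9 libraries. The motif count is a description of these windows and not of binding.

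MT2A was the most abundant of the 10 genes in every library. It had 1754, 1589 and 1640 TPM with curcumin and CuCl2, 1075, 927 and 1116 TPM with curcumin, and 800, 1057 and 1453 TPM with palmitic acid alone. The libraries with CuCl2 were all above the other 6, and palmitic acid alone spread the most. MT1X had 130.6, 132.7 and 121.3 TPM with curcumin and CuCl2, 27.0, 30.8 and 42.2 TPM with curcumin, and 21.4, 33.2 and 42.7 TPM with palmitic acid alone. Its lowest library with CuCl2 was far above the highest of the other 6. MT1E had 53.0, 53.6 and 54.0 TPM with curcumin and CuCl2, 20.5, 21.0 and 26.5 TPM with curcumin, and 24.2, 20.2 and 32.0 TPM with palmitic acid alone. These 3 libraries with CuCl2 were also above all others and nearly identical to each other.

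**Figure D1:**
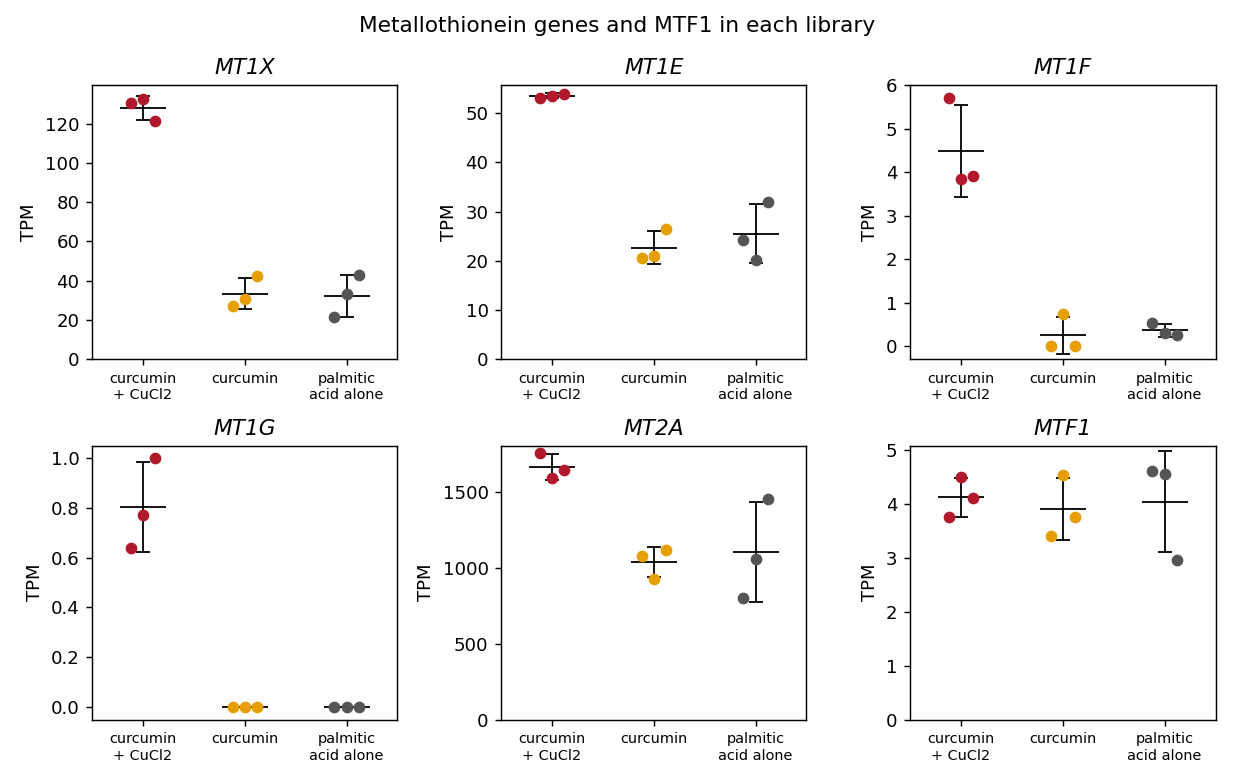
TPM of MT1X, MT1E, MT1F, MT1G, MT2A and MTF1 (y axes) in cells with curcumin and CuCl2, curcumin, and palmitic acid alone; points are libraries, bars the mean and SD of 3. All 3 libraries with CuCl2 lie above the other 6 for the 5 metallothionein genes shown, while the groups overlap for MTF1. MT1F was kept for testing only through its level with CuCl2, and MT1G was too low for the main test. MT1A, MT1B, MT1H and MT1M are not shown and lack this pattern. How often it occurs among all genes was not counted, so it is a description. Pair by pair, the libraries with CuCl2 were all higher in 2.63% of tested genes against curcumin and 8.67% against palmitic acid alone.

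MT1F was a low gene that reached 5.71, 3.84 and 3.92 TPM with curcumin and CuCl2. With curcumin it was listed at 0, 0.73 and 0 TPM, and with palmitic acid alone at 0.53, 0.3 and 0.26 TPM. It thus passed the filter, an average over all libraries of 1 TPM or more, only through the group with CuCl2. MT1G stayed under that filter and was listed at 0.64, 0.77 and 1 TPM with curcumin and CuCl2, against 0 in all 6 other libraries. MT1B and MT1H each had 0.35 TPM in 1 library with curcumin and CuCl2 and were listed at 0 elsewhere. MT1A and MT1M were listed at 0 in all 9 libraries. In all, 5 of the 10 genes passed the filter: MT1E, MT1F, MT1X, MT2A and MTF1.

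MTF1, the gene of the metal-sensing activator, was low in all groups. It had 3.76, 4.49 and 4.11 TPM with curcumin and CuCl2, 3.41, 4.53 and 3.76 TPM with curcumin, and 4.6, 4.56 and 2.96 TPM with palmitic acid alone. These ranges overlap.

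Across genes, the order of mean levels with palmitic acid alone was MT2A, MT1X, MT1E, MTF1 and MT1F, with MT1X (32.4 ± 10.7 TPM) and MT1E (25.5 ± 6.02 TPM, SD, n = 3 each) within each other's spread. With curcumin the order was the same, at 33.3 ± 7.88 TPM for MT1X and 22.7 ± 3.35 TPM for MT1E. With curcumin and CuCl2, MT1X at 128 ± 6.07 TPM stood clear of MT1E at 53.5 ± 0.483 TPM, and MT1F and MTF1 were within each other's spread. The spread between libraries was narrower with CuCl2. The SD was 5.08% of the mean for MT2A, 4.73% for MT1X and 0.902% for MT1E. It was 9.58%, 23.7% and 14.8% with curcumin, and 29.8%, 33% and 23.6% with palmitic acid alone. In the same order of groups, the low MT1F had 23.5%, 173% and 40.1%, and MTF1 8.86%, 14.7% and 23.2%. Of genes near the cluster, BBS2 had SDs of 0.591, 2.58 and 4.03 TPM, and SLC12A3 1.78, 1.51 and 2.11 TPM. A narrower spread was thus not particular to metallothionein genes, and its share among all genes was not counted.

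**Figure D2:**
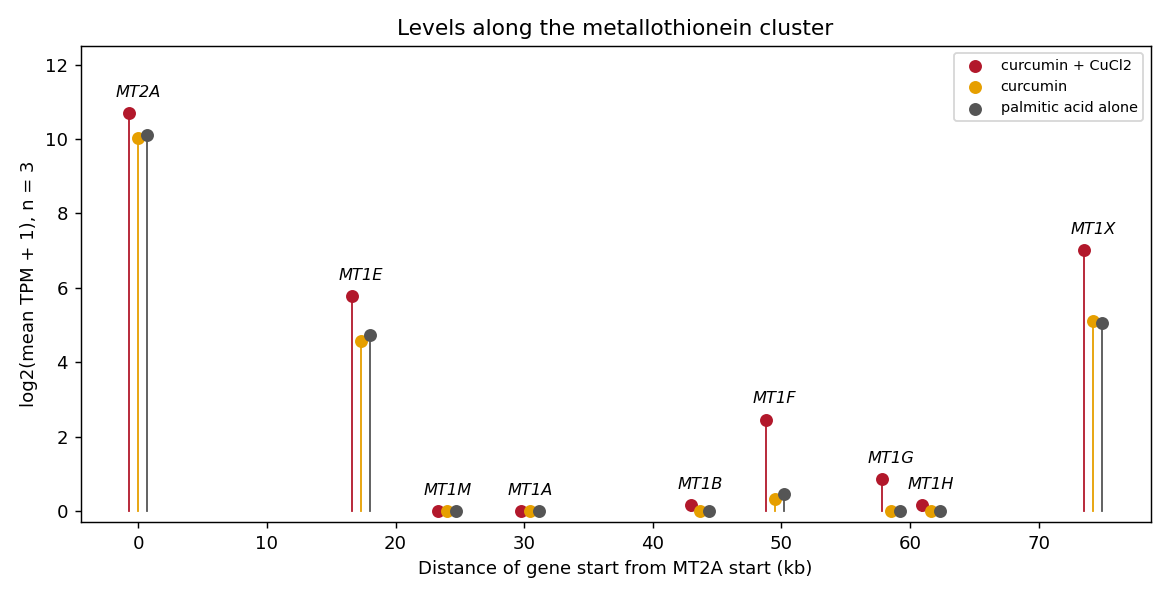
Mean level of each of the 9 metallothionein genes, as log2(mean TPM + 1) of 3 libraries (y axis), at its distance from the MT2A start in kb (x axis); colours give the treatment and points of a gene are set slightly apart. MT2A, MT1E and MT1X carry signal in every group, MT1F and MT1G almost only with curcumin and CuCl2, and MT1M and MT1A none.

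Curcumin with CuCl2 against curcumin is the only pair of groups that differs by the metal salt alone. MT1X was 3.85-fold higher, MT1E 2.36-fold and MT2A 1.60-fold, as ratios of mean TPM, and MT1F stood at 3.84 to 5.71 TPM with CuCl2 against 0 to 0.73 TPM without it. No gene of the 13443 tested passed the threshold, an adjusted p under 0.05 in limma's moderated test with Benjamini-Hochberg adjustment over all genes (0%). At an unadjusted p under 0.05 there were 215 (1.6%). MT1F, MT1X and MT1E had the 3 smallest p-values of all 13443 genes, and MT2A the 15th smallest. MT1F entered the test only through its level with CuCl2, so it had to be higher there, and its p and rank are given as a description.

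On the log2(TPM + 1) scale, where low genes are understated, the difference between curcumin with CuCl2 and curcumin was 1.94 for MT1X (95% interval 1.42 to 2.45, limma adjusted p = 0.0692) and 1.21 for MT1E (0.86 to 1.56, limma adjusted p = 0.0947). For MT1F, subject to that selection, it was 2.18 (1.62 to 2.73, limma adjusted p = 0.0692), and it ranged from 0.85 with a pseudocount of 5 to 4.48 with one of 0.1. MT2A had an estimate of 0.68 (0.28 to 1.08, limma adjusted p = 1). The next smallest p-value among genes with a symbol was that of HSPA6, the gene of a strictly stress-inducible heat shock protein, at 0.000972 unadjusted, against 7.61e-06 for MT1F, 1.03e-05 for MT1X and 2.11e-05 for MT1E. For these 4 metallothionein genes all 3 libraries with CuCl2 were above all 3 with curcumin, which held for 2.63% of the genes tested. MTF1 had an estimate of 0.07 with an interval of -0.31 to 0.45.

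**Figure D3:**
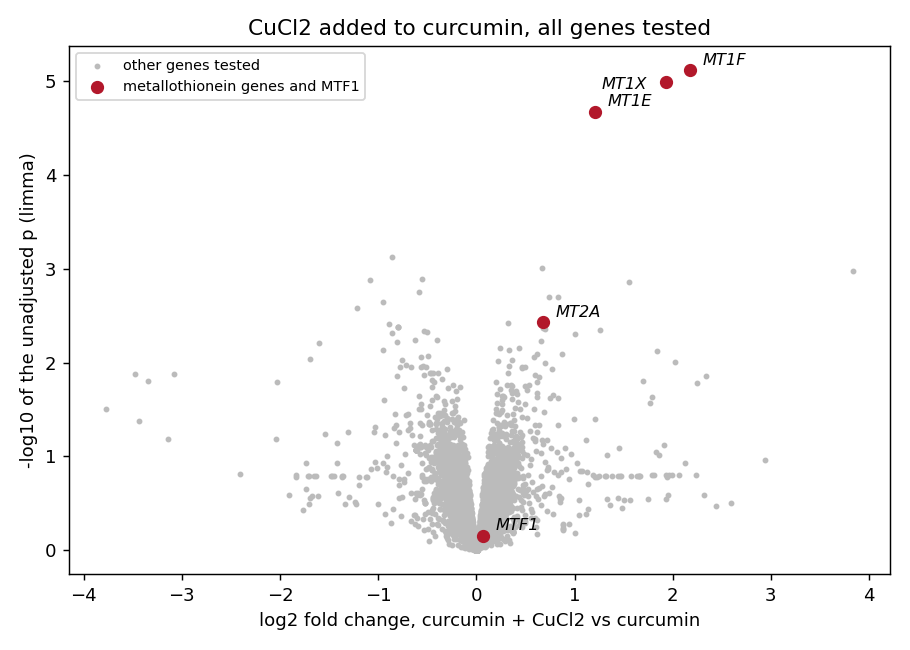
Curcumin with CuCl2 against curcumin for the 13443 genes tested: log2 fold change (x axis) and -log10 of the unadjusted limma p (y axis), with the 4 tested metallothionein genes and MTF1 in red. MT1F, MT1X and MT1E have the 3 smallest p-values, MT2A lies at the upper edge of the other genes and MTF1 near 0.

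The side of the threshold in this comparison depended on the fit. With only these 6 libraries fitted, MT1X and MT1E passed (limma adjusted p = 0.00828 and 0.0137). Without replicate 3 of palmitic acid alone they passed as well (limma adjusted p = 0.017 for each), and without replicate 1 of that group MT1X did (limma adjusted p = 0.0157). Without replicate 2 of curcumin MT1F passed (limma adjusted p = 0.00497). That replicate held the only MT1F value above 0 with curcumin, so the rest of the group had no spread. MT1F also had to be higher with CuCl2 to be tested, so its pass is a description. Other fits moved MT1X and MT1E further from the threshold. With median-of-ratios scaling the limma adjusted p was 0.419 for MT1X and 0.776 for MT1E, and with no variance trend 0.194 for each. Without 1 library of curcumin with CuCl2, the limma adjusted p was 0.189 to 0.373 for MT1X and 0.357 to 0.494 for MT1E. When every gene above 0 was tested, MT1G passed (log2 difference 0.85, limma adjusted p = 0.0235), and MT1X, MT1F and MT1E did not (limma adjusted p = 0.21, 0.176 and 0.235). MT1G is listed at 0 in all 6 libraries without CuCl2, so its spread there is 0 and its p rests on 3 libraries. It entered that fit only through its level with CuCl2, so it had to be higher there, and its call is a description.

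Curcumin with CuCl2 was next compared with palmitic acid alone. Of the 10 genes, MT1X, MT1F and MT1E rose, MT2A and MTF1 did not pass, and the other 5 were under the filter. In this comparison 0.543% of the 13443 genes were called higher. MT1X rose by 2.003 on the log2 scale (95% interval 1.49 to 2.52, limma adjusted p = 0.00511), MT1F by 1.998 (1.44 to 2.56, limma adjusted p = 0.00658) and MT1E by 1.07 (0.72 to 1.42, limma adjusted p = 0.0126). MT1F had to be higher here to be tested at all. MT2A was 1.51-fold higher in mean TPM (log2 difference 0.63, 0.23 to 1.03, limma adjusted p = 0.129). For MT1X, MT1F, MT1E and MT2A all 3 libraries with CuCl2 were above all 3 with palmitic acid alone, as in 8.67% of the genes tested. The interval for MTF1 was -0.34 to 0.42. More cells with a transcript and more of it per cell cannot be told apart in such bulk libraries.

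MT1X passed in every alternative fit, with adjusted p between 0.00154 and 0.04. The call of MT1E was lost without replicate 1, 2 or 3 of curcumin with CuCl2 (limma adjusted p = 0.0713, 0.0645 and 0.0725), and that of MT1F with a pseudocount of 0.1 (log2 difference 3.33, limma adjusted p = 0.0739). With a pseudocount of 5 the estimate of MT1F was 0.82, so its size on this scale is set largely by the pseudocount. MT2A passed without replicate 3 of palmitic acid alone, which had its highest level in that group and the lowest mitochondrial share (log2 difference 0.85, limma adjusted p = 0.0098), and with mitochondrial share as a covariate (0.52, limma adjusted p = 0.00855).

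Curcumin alone against palmitic acid alone gave no call for any of the 10 genes, where 0.759% of genes were called higher and 1.21% lower. The estimates were 0.07 for MT1X (95% interval -0.45 to 0.58, limma adjusted p = 0.954), -0.15 for MT1E (-0.50 to 0.20, limma adjusted p = 0.779), -0.05 for MT2A (-0.45 to 0.35, limma adjusted p = 0.958), -0.18 for MT1F (-0.74 to 0.38, limma adjusted p = 0.851) and -0.03 for MTF1 (-0.41 to 0.35, limma adjusted p = 0.974). The groups overlapped for all 5, where 16.8% of genes had groups that did not. These comparisons share their libraries: curcumin stands in both, and palmitic acid alone serves 2 comparisons.

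**Figure D4:**
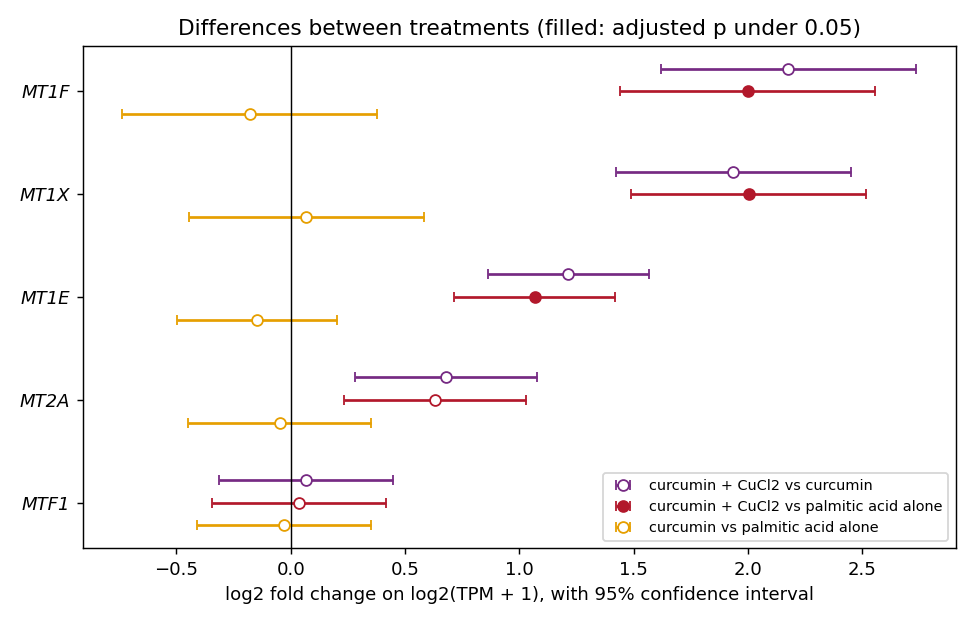
Log2 fold change on log2(TPM + 1) with its 95% confidence interval (x axis) for the 5 genes tested (y axis) in 3 comparisons; filled points have a limma adjusted p under 0.05. Intervals for the 4 metallothionein genes lie above 0 in both comparisons with CuCl2 and span 0 for curcumin against palmitic acid alone, and those for MTF1 span 0 throughout.

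The make-up of the metallothionein RNA differed as well as its amount. Summed over the 9 genes, the level was 1944, 1780 and 1821 TPM with curcumin and CuCl2, 1122, 979 and 1185 TPM with curcumin, and 846, 1111 and 1528 TPM with palmitic acid alone. The ratio of group means was 1.69 for curcumin with CuCl2 over curcumin and 1.59 over palmitic acid alone. MT1 genes made up 9.79% to 10.7% of the sum with curcumin and CuCl2, 4.23% to 5.8% with curcumin and 4.83% to 5.45% with palmitic acid alone, so the ranges with and without CuCl2 did not overlap. The rest was MT2A, at 89.3% to 90.2%, 94.2% to 95.8% and 94.6% to 95.2% in the same order of groups.

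Among the MT1 genes, MT1X gained most within the sum. Its share was 6.66% to 7.45% with curcumin and CuCl2, 2.41% to 3.56% with curcumin and 2.52% to 2.98% with palmitic acid alone. MT1E held 2.73% to 3.01% with curcumin and CuCl2, above the 1.83% to 2.24% with curcumin but overlapping the 1.82% to 2.86% with palmitic acid alone. The level of MT1X was 2.25 to 2.48 times that of MT1E in libraries with curcumin and CuCl2, 1.32 to 1.59 times with curcumin and 0.883 to 1.64 times with palmitic acid alone. MT2A was 12 to 13.5 times as abundant as MT1X with curcumin and CuCl2, against 26.5 to 39.8 times with curcumin and 31.9 to 37.5 times with palmitic acid alone. These shares are descriptions with no test.

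**Figure D5:**
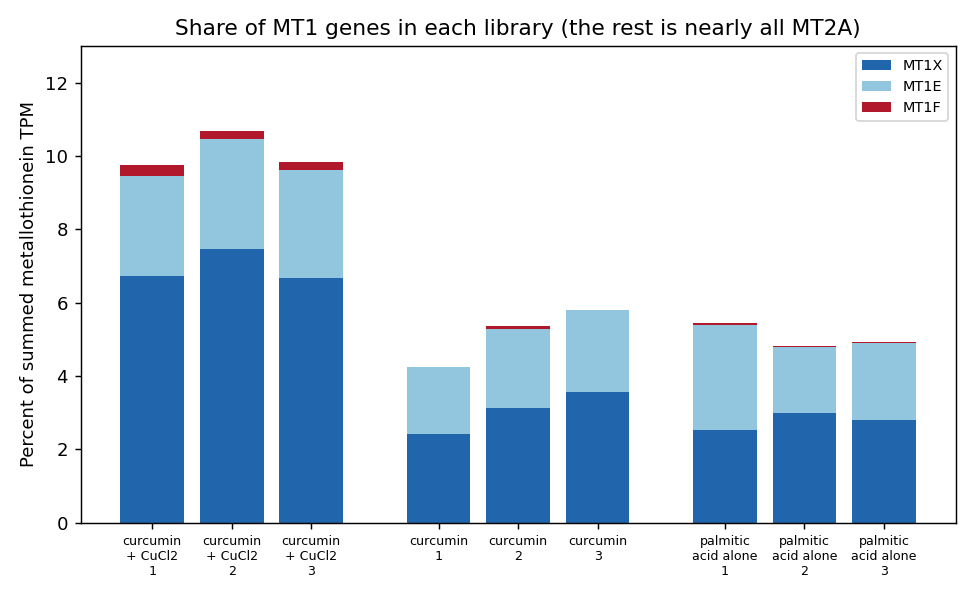
Percent of the summed TPM of the 9 metallothionein genes held by MT1X, MT1E and MT1F (stacked bars, y axis from 0) in each library (x axis, replicate number under the treatment). The bars reach about 10% in the 3 libraries with curcumin and CuCl2 and 4.23% to 5.8% in the other 6.

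Pooled over the groups, MT2A, MT1X and MT1E varied together between libraries, while inside the groups this differed from group to group. With curcumin and CuCl2, MT2A had 1754, 1589 and 1640 TPM while MT1E had 53.03, 53.6 and 53.99 TPM. With palmitic acid alone, where these genes spread the most, MT2A had 800, 1057 and 1453 TPM and MT1X 21.4, 33.2 and 42.7 TPM. After each group's mean was taken out, log2 levels of MT2A and MT1X correlated at a Pearson r of 0.837, MT1X and MT1E at 0.616, and MT2A and MT1E at 0.6, over 9 libraries. MT1F did not follow them, with r of -0.312 with MT1X and -0.414 with MT2A, at levels under 1 TPM in 6 of the libraries. These genes share the library, its depth and some sequence, so the values are descriptions.

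The same table holds 12 other metallothionein loci, in 13 rows. Of these, 11 rows were listed at 0 in every library, including MT3, the form known from brain. A row of the pseudogene MT1JP had 0.34 to 0.49 TPM with curcumin and CuCl2, 0 to 0.09 TPM with curcumin and 0.15 to 0.17 TPM with palmitic acid alone. MT4, known from stratified epithelia, had 1.48 TPM in 1 library with curcumin and was listed at 0 elsewhere.

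Genes that flank the cluster were looked at next. Of 9 neighbours on chromosome 16, 7 were tested. None passed in curcumin with CuCl2 against curcumin, where 0% of all genes did, so this shows nothing particular to them. Their median log2 difference was 0.06 against -0.01 over all genes. NUP93, a nuclear pore gene beyond MT1X, averaged 97.1 ± 4.47 TPM with curcumin and CuCl2 and 92.5 ± 4.599 TPM with curcumin, and BBS2, a ciliary gene on the side of MT2A, 18.0 ± 0.591 and 17.4 ± 2.58 TPM (SD, n = 3 each). SLC12A3, a salt cotransporter gene, was the only neighbour called against palmitic acid alone, where 0.9% of genes were called lower with curcumin and CuCl2. It fell by 0.82 with curcumin and CuCl2 (limma adjusted p = 0.0113) and by 0.74 with curcumin (limma adjusted p = 0.0187), on the log2 scale.

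Other genes known as MTF1 targets gave no call in any of the 3 comparisons, with 6 of 8 tested. Over all genes 0.543% were called higher and 0.9% lower for curcumin with CuCl2 against palmitic acid alone, 0.759% and 1.21% for curcumin against palmitic acid alone, and 0% for CuCl2 added to curcumin, so no call among 6 genes is near the background and shows nothing particular to them. Their median log2 difference was 0.07 for curcumin with CuCl2 against curcumin, 0.09 for curcumin with CuCl2 against palmitic acid alone and 0.02 for curcumin against palmitic acid alone, beside -0.01, -0.03 and -0.02 over all genes. SLC30A1, which encodes the zinc exporter of the plasma membrane and is the best-known of them, averaged 25.1 ± 1.16 TPM with curcumin and CuCl2, 23.8 ± 5.19 TPM with curcumin and 18.0 ± 4.38 TPM with palmitic acid alone (SD, n = 3 each). Its estimate was 0.09 (SE 0.19, limma adjusted p = 1) for CuCl2 added to curcumin and 0.49 (SE 0.19, limma adjusted p = 0.277) for curcumin with CuCl2 against palmitic acid alone. SLC39A10, a zinc importer gene that MTF1 represses, had 8.62 ± 0.574 TPM with curcumin and CuCl2 and 8.20 ± 1.91 TPM with curcumin.

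Zinc transporter genes, 16 of 19 tested, had no call in any of the 3 comparisons, which at the shares just given is no more than the background. Of 12 genes of copper transport and chaperones, 11 were tested. None passed for CuCl2 added to curcumin, where 0% of all genes did, and their median log2 difference was -0.07 against -0.01 over all genes. The copper importer gene SLC31A1 averaged 31.7 ± 1.40 TPM with curcumin and CuCl2 and 32.4 ± 3.53 TPM with curcumin, and ATP7A, the gene of a copper-exporting ATPase, 4.31 ± 0.655 and 5.02 ± 1.18 TPM (SD, n = 3 each). SOD1, the copper-zinc superoxide dismutase gene, was the only 1 of the 11 called against palmitic acid alone. It rose by 0.42 with curcumin and CuCl2 (limma adjusted p = 0.0157), where 0.543% of genes were called higher. With curcumin it rose by 0.35 (limma adjusted p = 0.0303), where 0.759% were.

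Genes of metal and oxidant stress were set beside the metallothioneins. Of 14, all tested, 5 rose in curcumin with CuCl2 against palmitic acid alone, where 0.543% of genes did. In curcumin against palmitic acid alone 5 rose and 2 fell, where 0.759% of genes rose and 1.21% fell. None passed for CuCl2 added to curcumin, where 0% of all genes did. HMOX1, GCLM, SRXN1, NQO1 and OSGIN1 rose in both comparisons with palmitic acid alone, which share those libraries. TXNRD1, a thioredoxin reductase gene, did not pass, at 0.33 with curcumin and CuCl2 (limma adjusted p = 0.569) and 0.26 with curcumin (limma adjusted p = 0.67). SLC7A11, a cystine transporter gene, did not pass either, at 0.27 (limma adjusted p = 0.67) and 0.31 (limma adjusted p = 0.607) in the same order. HMOX1, which encodes heme oxygenase 1, averaged 731 ± 11.5 TPM with curcumin and CuCl2, 783 ± 27.4 TPM with curcumin and 129 ± 14.7 TPM with palmitic acid alone. The heat shock genes HSPA1A and HSPB1 fell with curcumin against palmitic acid alone: HSPA1A fell by 0.34 (limma adjusted p = 0.0458) and HSPB1 fell by 0.55 (limma adjusted p = 0.0462). HSPA1A has a near-identical copy, HSPA1B, that can share its reads. For CuCl2 added to curcumin, HMOX1 had an estimate of -0.10 (SE 0.08) and NQO1, a quinone reductase gene, of 0.00077 (SE 0.06), beside 1.94 (SE 0.23) for MT1X.

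The genes whose levels followed the metallothioneins most closely were then ranked, with metallothionein genes themselves left out, by Pearson r of log2(TPM + 1) over the 9 libraries. The gene closest to the summed MT1 level was HSPA6 at 0.915, with 2.16 ± 0.131 TPM with curcumin and CuCl2, 0.983 ± 0.169 TPM with curcumin and 1.31 ± 0.0569 TPM with palmitic acid alone (SD, n = 3 each). Its estimate for CuCl2 added to curcumin was 0.67 (SE 0.14, limma adjusted p = 1). It was followed by SRI (0.86), SUPT4H1 (0.859), AVPI1 and LIPT2-AS1 (0.857 each), PKDCC (0.856), AHCY (0.841), TBC1D22A and FAM162A (0.835 each) and C14orf119 (0.827). Closest to MT2A outside the family, where MT1X had an r of 0.919 and MT1E of 0.885, were GLRX5, which encodes a mitochondrial glutaredoxin (0.927), AVPI1 (0.921), SRI (0.895), HAUS7 (0.893) and GAS5 (0.881). SRI encodes a calcium-binding protein and AHCY the enzyme that hydrolyses S-adenosylhomocysteine. Their differences were small beside those of the MT1 genes: SRI averaged 99.2 ± 4.49 TPM with curcumin and CuCl2 and 85.7 ± 6.34 TPM with curcumin. These ranks come from libraries that share treatment and depth and are given with no p.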

How the data were processed

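The values are the TPM that the authors deposited, per the file headers, as 1 table of 62703 genes by 9 libraries. HISAT2 2.1.0, RSEM 1.3.3 and GRCh38.p13 appear in the submitters' processing notes. Their roles, the annotation release and any filter are not given in the sources used here. TPM keeps no depth, so no count model or counting interval was used, and how reads of near-identical genes were shared can change single values. Columns were matched to samples by name. The labels do not say that replicates were separate cultures, so p-values reflect only how far these libraries differ, possibly for technical reasons.

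Genes averaging 1 TPM or more were kept (13443 genes, 99.7% of the TPM). One model per gene with a mean per treatment was fitted on log2(TPM + 1) over all 9 libraries in limma 3.58.1 (R 4.3.3), with a variance trend, two-sided tests and Benjamini-Hochberg adjustment over all genes kept at 0.05. The test was tried on 20 simulated data sets for CuCl2 added to curcumin. It recovered 45.6% of changes of 1.5-fold, 80.5% of 2-fold and 98% of 4-fold, and 5.86% of calls were false. Each simulated data set held 200 changed genes, which eases the adjustment, while the real comparison called 0. These rates therefore need not hold for it. Noise there was independent between genes and low genes were given no change, so it does not cover genes such as MT1F. Alternatives were other pseudocounts, filters and scalings, fewer libraries, a replicate block, no trend and a mitochondrial covariate. The text names all 10 genes, members of 6 related lists that passed or illustrate them, 5 marker lists, and the genes of closest pattern. The examples SLC30A1, SLC39A10, SLC31A1, ATP7A, NUP93 and BBS2 were chosen after their values were seen. Members and lists were chosen with earlier results of these data known. Locations are from GENCODE release 29 (GRCh38). Figures used matplotlib 3.10.9.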

Additional observations from a re-analysis of the deposited data

How the results depend on the processing

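Of 20 alternatives, all chosen with earlier results of these data known, none turned the direction of MT1E, MT1F or MT1X in the comparisons with CuCl2 (118 of 118 estimates above 0). MT1F was kept only through its level with CuCl2, so its direction was set by that selection. Fits that change only the test, or leave out a library outside the pair compared, return the same estimate. The count is therefore only a description. Lost and gained calls of MT1E, MT1F, MT1X and MT2A stand in the report, and the cause was not tested. MT1F was not tested at a minimum mean of 5 TPM. Metallothionein genes called higher with curcumin and CuCl2 against palmitic acid alone numbered 2 to 4. In the main fit they numbered 3, where 0.543% of all genes were called higher. They numbered 4 with no filter, where MT1G was added, a gene above 0 only with CuCl2. There 114 of 31912 genes were called in either direction. They also numbered 4 with the mitochondrial covariate (1436 of 13443 genes called) and without replicate 3 of palmitic acid alone (555 of 13450). For CuCl2 added to curcumin, metallothionein genes called higher numbered 1 with a pseudocount of 5 (MT1F, limma adjusted p = 0.05). They numbered 1 with no filter (MT1G, above 0 only with CuCl2), 2 with only the groups compared, and 0 to 2 with a library left out. Genes called in that comparison numbered 1, 3 and 3 under the same settings and 0 to 4 with a library left out. For curcumin with CuCl2 against palmitic acid alone, 194 genes became 114 with no filter, 65 with only the groups compared and 1436 with mitochondrial share as covariate. With a library left out they numbered 49 (without curcumin and CuCl2 replicate 1) to 555 (without palmitic acid alone replicate 3). For curcumin against palmitic acid alone, 264 became 104, 45 and 1505 under the same settings, 130 with no variance trend, and 55 to 633 with a library left out. Estimates near 0 changed sign. In curcumin against palmitic acid alone, MT1X became -0.041 and MTF1 0.079 with the mitochondrial covariate. With a library left out there, MT1E spanned -0.29 to 0.025, MT1X -0.20 to 0.29, MT2A -0.26 to 0.17 and MTF1 -0.19 to 0.056. MTF1 spanned -0.13 to 0.12 with curcumin and CuCl2 against palmitic acid alone and -0.0054 to 0.16 for CuCl2 added to curcumin. Ratios of summed TPM ranged over 1.40 to 1.89, 1.60 to 1.76 and 0.83 to 1.12 for curcumin with CuCl2 over palmitic acid alone, curcumin with CuCl2 over curcumin, and curcumin over palmitic acid alone.

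With the replicate number as a block, 147, 0 and 177 genes were called in these 3 comparisons, in the same order, and no call of the 10 genes changed; for CuCl2 added to curcumin the limma adjusted p was 0.0641 for MT1X and MT1E and 0.143 for MT1F. Same-numbered libraries did not deviate together (9 pairs, r from -0.269 to 0.246, 2 of them over 0.1), so the number is not taken as a pairing. Depth is unknown, so values listed at 0 have no detection limit.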
